A study of Mus musculus with 18 samples.

Results

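Matrix metalloproteinases (Mmp), ADAMTS proteases (Adamts), ADAMTS-like proteins (Adamtsl) and tissue inhibitors of metalloproteinases (Timp) were examined together in the RNA of a mouse tumor line and of the tumors it formed. Members were taken by symbol alone: every gene named Mmp, Adamts, Adamtsl or Timp followed by a number and at most 1 letter. This gave 39 of the 15596 genes in the count table, namely 18 Mmp, 13 Adamts, 5 Adamtsl and 3 Timp genes. The groups were 5 KD tumors and 5 WT tumors from C57BL/6 wild-type mice that had received MC38 cells, and 3 KD and 3 WT libraries of MC38 cells in culture. MC38 is a mouse colon adenocarcinoma line. KD libraries carry the label Mbtps1 KD and WT libraries the label Mbtps1 WT, whereas the design text calls the cultured KD cells a knockout. The sources used here do not say how Mbtps1 was lowered, whether the KD cells were 1 clone, where in the mouse they grew or how old the mice were. Mbtps1 encodes site-1 protease, the Golgi protease that releases membrane-bound transcription factors of the SREBP and ATF6 types.

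Matrix metalloproteinases are secreted or membrane-anchored enzymes that hold a zinc ion in the active site and cut collagens, fibronectin, proteoglycans and many signaling proteins. They are made as inactive precursors, some of which are opened by furin and others by another protease outside the cell. ADAMTS proteases use the same kind of zinc site and add thrombospondin repeats that bind matrix, while ADAMTS-like proteins have the repeats without the protease. TIMP proteins plug the active site, and in tumors these enzymes are known from cancer cells, fibroblasts, vessel cells and leukocytes alike.

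The zinc site is shown because it separates the 2 protease families from the other 2 families. A histidine, a glutamate, any 2 residues, a histidine, any 5 residues and a histidine were searched for in the protein encoded by the longest coding transcript of each member (GENCODE M21, GRCm38). All 18 Mmp and all 13 Adamts genes held this spacing, against 0 of 5 Adamtsl and 0 of 3 Timp genes. The coding stretches of 4 members that were lower in KD tumors follow, 5′ to 3′ along the transcript, with the 3 histidine codons in capitals.
Mmp14: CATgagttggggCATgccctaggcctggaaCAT
Mmp2: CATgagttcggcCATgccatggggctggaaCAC
Mmp9: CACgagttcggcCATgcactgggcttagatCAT
Adamts4: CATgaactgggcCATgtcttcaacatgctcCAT
The first 3 belong to Mmp genes and the last to an Adamts gene, and the places of the histidine codons are set by the search pattern itself.

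A second set of sequences comes from a cluster on chromosome 9. Between positions 7272514 and 7581885 on the + strand (GENCODE M21, GRCm38) lie 6 members in the order Mmp13, Mmp12, Mmp3, Mmp10, Mmp8 and Mmp27. Promoter windows of 250 bases before to 50 bases after the start site (RefSeq, GRCm38.p6) were on hand for 26 of the 39 members. They were searched for TGANTCA, where N is any base. The site of AP-1, a dimer of Fos and Jun proteins, has C or G in that place. Mmp2, Mmp9, Mmp16, Mmp17, Mmp19, Adamts4, Adamts5, Adamts6, Adamts7, Adamts8, Adamts10, Adamts15 and Adamtsl1 had no window and were not searched. The motif TGANTCA is its own reverse complement, so 1 search covers both strands. It occurred in 4 of 28 member windows, all of them in the cluster, and in 7.81% of the 32851 promoter windows of all genes. Within the 100 bases before the start site it occurred in 2.93% of all windows. Both shares count any middle base, while the 4 member matches hold C or G there. The last 90 bases before the start site of these 4 genes follow, on the + strand, with the match in capitals.
Mmp13: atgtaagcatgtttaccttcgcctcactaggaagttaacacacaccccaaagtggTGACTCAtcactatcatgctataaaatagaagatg
Mmp12: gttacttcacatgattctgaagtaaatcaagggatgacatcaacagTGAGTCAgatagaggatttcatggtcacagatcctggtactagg
Mmp3: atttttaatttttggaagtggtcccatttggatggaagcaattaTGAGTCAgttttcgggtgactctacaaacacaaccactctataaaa
Mmp10: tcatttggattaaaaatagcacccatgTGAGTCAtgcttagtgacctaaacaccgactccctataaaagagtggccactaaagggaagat
They lie at chr9:7272424-7272513 for Mmp13, chr9:7347284-7347373 for Mmp12, chr9:7445732-7445821 for Mmp3 and chr9:7502252-7502341 for Mmp10. The first base of the match stood 35, 44, 46 and 63 bases before the start site in Mmp13, Mmp12, Mmp3 and Mmp10, counted from the start of the listed transcript. Mmp12 has a second listed window further upstream in which the letters did not occur, and the windows of Mmp8 and Mmp27 held no match.

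**Figure D1:**
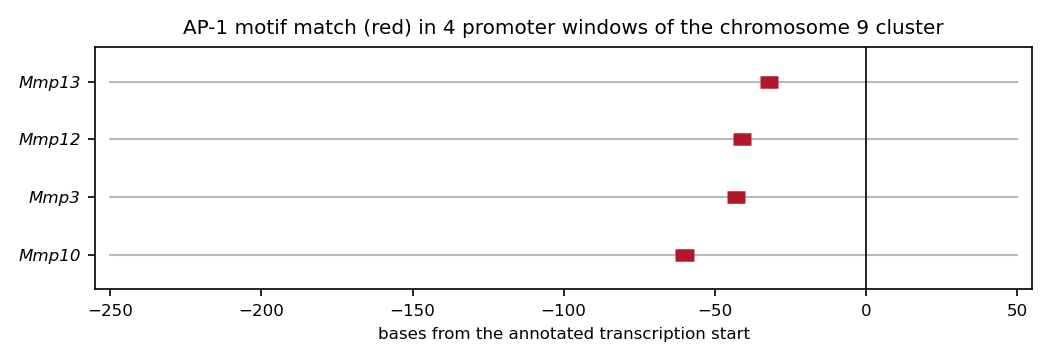
Position of the AP-1 letters in the promoter windows of 4 members of the chromosome 9 cluster. The x axis gives bases from the annotated transcription start, each gray line is 1 window, and each red bar is a match; all 4 matches start between 63 and 35 bases before the start site.

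Libraries held 14240353 to 15515405 counted reads in cells and 19630410 to 32655739 in tumors. Values are given as CPM, a gene's count scaled to a library total of 1000000 reads. Mbtps1 itself averaged 51.8 ± 6.4 CPM in KD tumors and 121 ± 8.6 CPM in WT tumors (SD, n = 5 each), and 35.8 ± 1.1 CPM in KD cells and 127 ± 8.8 CPM in WT cells (SD, n = 3 each). Its log2 fold change was -1.21 in tumors and -1.84 in cells, and every KD library lay below every WT library of its kind. A tumor library mixes MC38 RNA with RNA of the mouse's own cells, and in such samples fewer cells of a type and less RNA per cell cannot be told apart. Of 10 colon epithelium markers listed, 5 were in the count table. In cultured MC38 cells Epcam, Krt20 and Cdh1 were listed at 0. The 2 with counts summed to 2.41 to 3.93 CPM in KD cells and 1.83 to 4.62 CPM in WT cells. Counts of leukocyte, T and NK cell, neutrophil and mast cell markers were listed at 0 in all 6 cell libraries. A listed 0 is not a measured absence here, because the lowest non-zero sum over the cell libraries was 13 reads for any gene, and 15 over the tumor libraries, so low sums appear to be given as 0.

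Of the 39 members, 28 had counts in cells, 37 in tumors and 26 in both. Those listed at 0 in cells were Adamts2, Adamts8, Adamts15, Adamtsl1, Adamtsl2, Mmp8, Mmp12, Mmp13, Mmp15, Mmp25 and Mmp27, and those listed at 0 in tumors were Adamts20 and Mmp24. Levels of different genes were set side by side per kb of exon, in CPM per kb. On that scale Timp2 ranked first in each group, at 212 ± 38.5 in KD tumors, 249.9 ± 18.1 in WT tumors, 435 ± 6.7 in KD cells and 385 ± 7.2 in WT cells. Timp2 took 49.0% of the members' summed CPM in KD tumors, 45.7% in WT tumors, 68.9% in KD cells and 66.7% in WT cells. Timp1 followed in tumors at 101 ± 12.6 in KD tumors and 100.2 ± 9.6 in WT tumors, and Mmp14 came next at 26.4 ± 11.5 in KD tumors and 56.8 ± 8.3 in WT tumors. In KD tumors Adamts14 at 21.3 ± 2.6 and Adamtsl5 completed the first 5, with Adamtsl5 at 20.2; in WT tumors Mmp9 at 28.4 ± 2.1 and Mmp11 at 27.3 ± 2.9 did, a pair within each other's SD. In cells Mmp14 came second, at 60.2 ± 5.9 in KD cells and 54.7 ± 8.5 in WT cells, and Timp1 after it, at 33.2 ± 4.7 in KD cells and 40.2 ± 6.4 in WT cells. The next places in KD cells went to Adamts1 at 13.7 and Mmp11 at 13.1, and in WT cells to Adamts14 at 16.7 and Adamts1 at 14.8, all within each other's SD. Per kb of each gene's longest transcript, Mmp14 came to 48.5 in KD tumors and 104.6 in WT tumors, and Timp1 to 101.6 in KD tumors and 100.8 in WT tumors, so the order of this pair in WT tumors turns with the length used. In cells Mmp14 stayed above Timp1 on that scale, at 110.9 in KD cells and 100.7 in WT cells. The least abundant member listed above 0 in tumors was Adamtsl1.

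**Figure D2:**
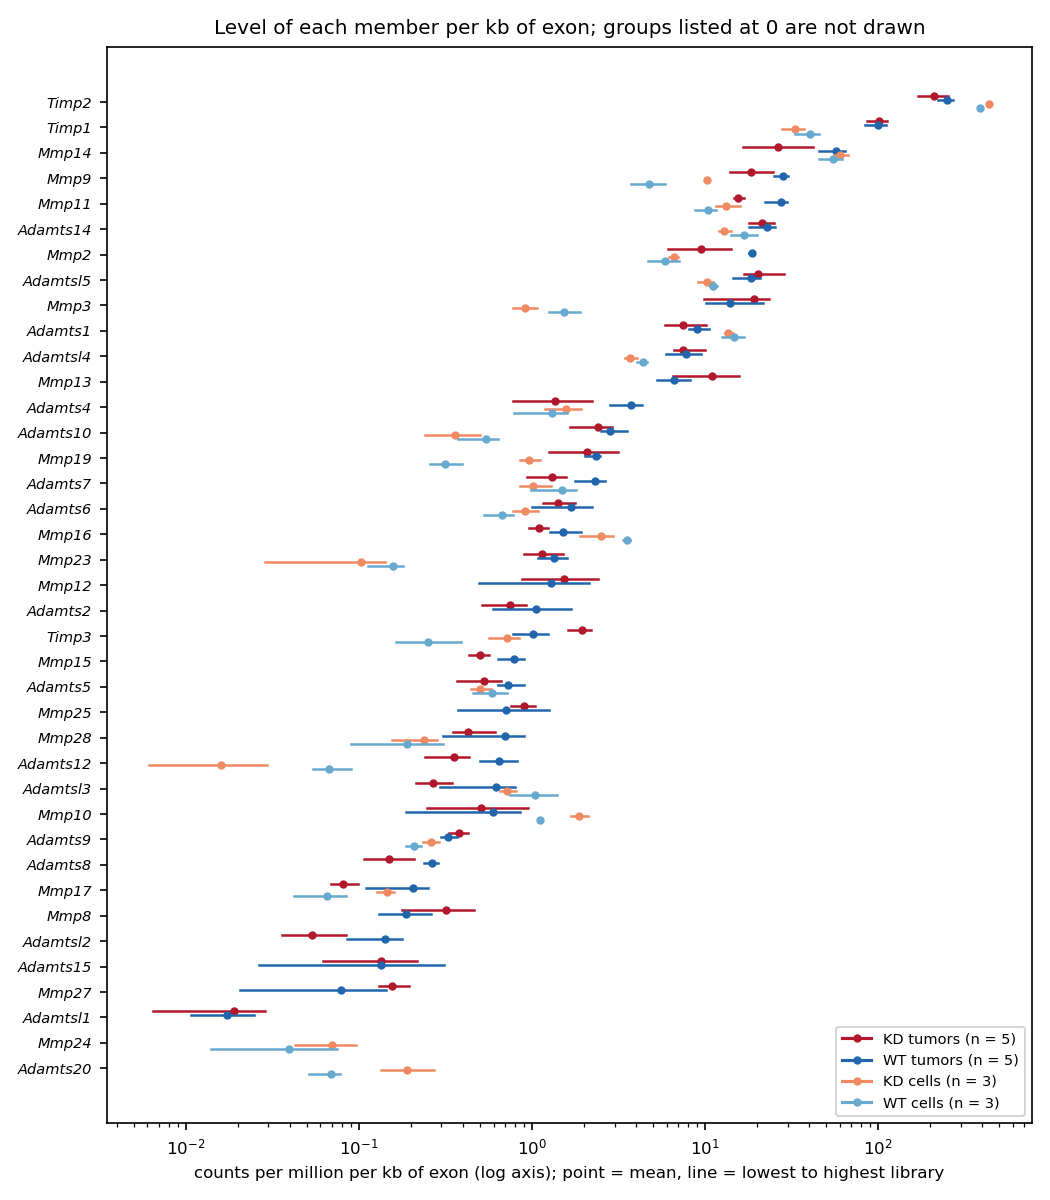
Level of each of the 39 members in CPM per kb of exon on a log axis, with the mean of a group as a point and the line from its lowest to its highest library; groups listed at 0 are not drawn. Timp2 stands at the top in KD tumors, WT tumors, KD cells and WT cells, and several proteases appear in tumors with no value in cells.

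Mmp14, Mmp2, Mmp9 and Mmp11 were lower in KD tumors than in WT tumors, and Timp3 was higher. Tests used edgeR's quasi-likelihood fit over all genes, and a change was called at a Benjamini-Hochberg adjusted p under 0.05. Of 35 members tested in tumors, 2 were higher, 14 were lower and 19 did not pass; the other 4 members were too low to test or listed at 0. Over all 13997 genes tested in tumors, 20.1% were called higher and 18.3% lower, against 5.71% and 40% of the members. The members' median log2 fold change was -0.26, beside 0.02 over all genes. KD and WT libraries did not overlap for 13 of the 35 members, or 37.1%, against 22.6% of all genes. By family, 7 of 16 Mmp genes, 5 of 12 Adamts genes and 2 of 4 Adamtsl genes tested were lower.

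**Figure D3:**
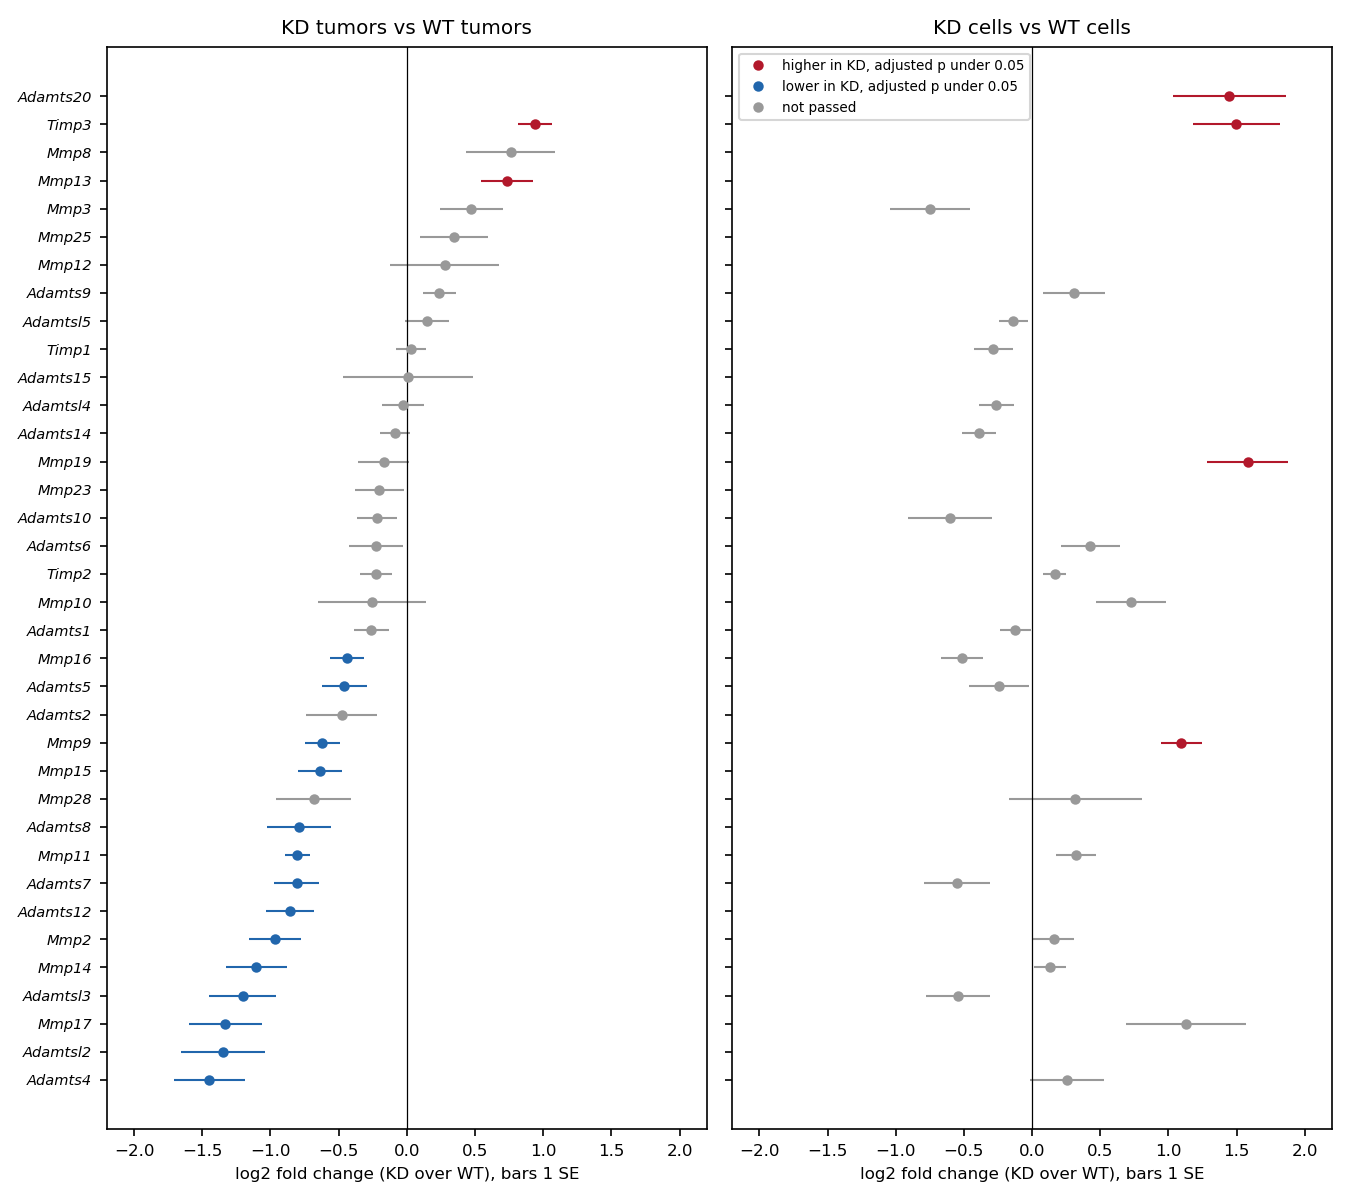
Log2 fold change of KD over WT for each member tested, in tumors on the left and in cells on the right, ordered by the tumor value, with bars of 1 SE. Red points are higher in KD, blue points lower in KD at an adjusted p under 0.05, and gray points did not pass; 14 points are blue on the left, and Timp3 is red in both panels.

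Mmp14, the membrane-type protease that cuts fibrillar collagen and opens pro-Mmp2 with Timp2 as the bridge, had 207, 117, 111, 252 and 98.4 CPM in KD tumors 1 to 5, against 303, 272, 383, 380.2 and 355 CPM in WT tumors 1 to 5. The 2 highest KD tumors, 1 and 4, lay below the lowest WT tumor. Its log2 fold change was -1.10 (SE 0.22, edgeR adjusted p = 0.0027), and it lay between -1.32 and -0.98 over the 16 alternatives run. Mmp2, the gelatinase that Mmp14 activates, had 47.6, 29.9, 20.8, 40.8 and 20.7 CPM in KD tumors, against 63.8, 63.5, 63.2, 60.8 and 62.3 CPM in WT tumors. The KD tumors were spread widely, again with tumors 1 and 4 on top, while the 5 WT tumors lay close together above them. Its log2 fold change was -0.97 (SE 0.19, edgeR adjusted p = 0.0023). Mmp9, the other gelatinase, had 74.9, 60.1, 53.6, 87.0 and 49.3 CPM in KD tumors, against 88.5, 100.2, 107, 106 and 100.2 CPM in WT tumors. The groups came close, at 87.0 CPM in KD tumor 4 and 88.5 CPM in WT tumor 1, without overlap, and the log2 fold change was -0.62 (SE 0.13, edgeR adjusted p = 0.0029).

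The other membrane-anchored members were less abundant. Mmp15 had 3.03, 3.01, 2.45, 2.35 and 2.62 CPM in KD tumors, against 4.86, 3.44, 4.78, 4.53 and 3.57 CPM in WT tumors, with a log2 fold change of -0.63 (SE 0.16, edgeR adjusted p = 0.0085). Mmp16, like Mmp14 and Mmp15 a transmembrane type, had 10.3, 8.31, 8.64, 9.68 and 10.8 CPM in KD tumors, against 12.6, 11.7, 16.7, 10.95 and 13.3 CPM in WT tumors, with a log2 fold change of -0.44 (SE 0.12, edgeR adjusted p = 0.014). Both sets of libraries stayed apart. Mmp17, anchored by a lipid tail, had 0.457, 0.494, 0.459, 0.621 and 0.654 CPM in KD tumors, against 0.733, 1.65, 1.58, 1.32 and 1.52 CPM in WT tumors. WT tumor 1 lay nearest to the KD tumors, and the log2 fold change was -1.33 (SE 0.27, edgeR adjusted p = 0.0023). Mmp25, the other lipid-anchored member, ranged from 3.999 to 5.55 CPM in KD tumors and from 1.97 to 6.64 CPM in WT tumors and did not pass (log2 fold change 0.35). It was called higher without WT tumor 1, at 0.64 with an edgeR adjusted p of 0.022.

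Mmp11, or stromelysin-3, a furin-activated protease known from fibroblasts around carcinomas, had the smallest adjusted p of the members. It had 46.8, 43.8, 41.4, 42.8 and 40.8 CPM in KD tumors, against 62.0, 79.3, 79.7, 76.8 and 82.1 CPM in WT tumors. The 5 KD tumors lay close together, and the lowest WT tumor, number 1, was still above them. The log2 fold change was -0.80 (SE 0.09, edgeR adjusted p = 8.0e-05).

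In the chromosome 9 cluster most estimates in tumors ran the other way. This grouping was made after the values were seen. Of 5 cluster members tested in tumors, 4 had a positive log2 fold change and the median was 0.47, while of the 11 other Mmp genes tested 1 was positive and the median was -0.63. Mmp13, a collagenase that in rodents takes much of the work of human MMP1, was the 1 cluster member that passed. It had 32.0, 26.6, 17.5, 42.2 and 28.0 CPM in KD tumors, against 22.0, 14.04, 16.95, 14.1 and 21.3 CPM in WT tumors. KD tumor 3 lay inside the WT range and the other KD tumors above it, and the log2 fold change was 0.73 (SE 0.19, edgeR adjusted p = 0.0097). Mmp3, or stromelysin-1, had 37.1, 35.5, 17.8, 40.6 and 42.2 CPM in KD tumors, against 38.7, 18.3, 22.0, 18.4 and 28.1 CPM in WT tumors. KD tumor 3 was low and WT tumor 1 high, the groups overlapped, and the log2 fold change of 0.47 did not pass (SE 0.23, edgeR adjusted p = 0.12). Without KD tumor 3 it was 0.63 with an edgeR adjusted p of 0.021, and without WT tumor 1 it was 0.67 with an edgeR adjusted p of 0.028. Mmp8, the neutrophil collagenase, had 1.12, 0.539, 0.429, 0.888 and 0.900 CPM in KD tumors and 0.504, 0.321, 0.632, 0.509 and 0.318 CPM in WT tumors (log2 fold change 0.76, edgeR adjusted p = 0.078). It passed without KD tumor 3, at 0.92 with an edgeR adjusted p of 0.037. Mmp12, the macrophage elastase, ranged from 6.35 to 17.4 CPM in KD tumors and from 3.57 to 15.5 CPM in WT tumors, and Mmp10, or stromelysin-2, from 0.429 to 1.64 CPM in KD tumors and from 0.321 to 1.47 CPM in WT tumors. Neither passed, and their libraries overlapped.

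Among the ADAMTS proteases, Adamts4, an aggrecanase that also cuts versican, had the largest fall in tumors of the members tested. It had 9.02, 5.30, 4.04, 10.7 and 3.76 CPM in KD tumors, against 14.2, 13.6, 20.9, 20.3 and 20.6 CPM in WT tumors. KD tumors 1 and 4 were the highest of their group and stayed below the WT tumors. These 2 tumors were on top for 5 of the 14 lower members, Adamts4 included. The log2 fold change of Adamts4 was -1.45 (SE 0.26, edgeR adjusted p = 0.0014). Adamts12 had 4.74, 2.65, 3.37, 3.995 and 4.54 CPM in KD tumors, against 6.87, 6.10, 8.97, 5.50 and 7.84 CPM in WT tumors (log2 fold change -0.86, SE 0.18, edgeR adjusted p = 0.0027). Adamts7, which with Adamts12 is known to cut cartilage oligomeric matrix protein, had 9.93, 6.96, 9.80, 8.39 and 5.89 CPM in KD tumors, against 11.1, 15.6, 13.6, 16.6 and 15.7 CPM in WT tumors (log2 fold change -0.81, SE 0.16, edgeR adjusted p = 0.0025). All 5 KD tumors lay below all 5 WT tumors for both genes. Adamts8 had 0.956, 0.494, 0.796, 0.577 and 0.613 CPM in KD tumors, against 1.10, 1.28, 1.15, 1.32 and 1.24 CPM in WT tumors (log2 fold change -0.79, SE 0.23, edgeR adjusted p = 0.018). Adamts5, the second main aggrecanase, had 7.15, 4.49, 3.98, 7.10 and 5.81 CPM in KD tumors, against 7.01, 6.88, 9.76, 7.90 and 7.81 CPM in WT tumors. Its groups overlapped, and its log2 fold change of -0.46 (SE 0.17, edgeR adjusted p = 0.044) no longer passed when WT tumor 3, 4 or 5 or KD tumor 2, 3 or 5 was left out, with adjusted p-values from 0.076 to 0.11.

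Procollagen-trimming members did not pass. Adamts14, a procollagen N-proteinase and the most abundant Adamts gene per kb in tumors, had 111, 93.1, 131, 107 and 112 CPM in KD tumors, against 131, 93.8, 116, 131 and 124 CPM in WT tumors, and the groups overlapped (log2 fold change -0.09, SE 0.11). Adamts2, the related N-proteinase, ranged from 4.78 to 8.65 CPM in KD tumors and from 5.60 to 15.7 CPM in WT tumors (log2 fold change -0.48, SE 0.26). Adamts1, another proteoglycan-cutting member, had 45.1, 32.0, 31.1, 53.8 and 36.6 CPM in KD tumors, against 45.5, 43.1, 55.7, 48.9 and 46.1 CPM in WT tumors (log2 fold change -0.26, SE 0.13). It passed without KD tumor 4, its highest KD library, at -0.38 with an edgeR adjusted p of 0.017. The other Adamts genes tested, Adamts6, Adamts9, Adamts10 and Adamts15, had log2 fold changes between -0.23 and 0.24. Mmp19, Mmp23 and Mmp28 lay between -0.68 and -0.17 without passing, and Mmp28 passed without WT tumor 2 (-0.87, edgeR adjusted p = 0.011) or without KD tumor 1 (-0.85, edgeR adjusted p = 0.031). With DESeq2 Mmp28 also passed (-0.69, adjusted p = 0.044).

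Of the ADAMTS-like genes, Adamtsl3 had 2.04, 1.66, 2.27, 2.66 and 1.72 CPM in KD tumors, against 2.29, 6.15, 4.70, 5.45 and 5.44 CPM in WT tumors. WT tumor 1 lay inside the KD range and the other WT tumors well above it, with a log2 fold change of -1.20 (SE 0.25, edgeR adjusted p = 0.0026). Adamtsl2, a microfibril-associated protein, had 0.333, 0.494, 0.674, 0.355 and 0.286 CPM in KD tumors, against 0.687, 1.19, 1.42, 1.27 and 1.10 CPM in WT tumors (log2 fold change -1.35, SE 0.31, edgeR adjusted p = 0.0047). Its groups nearly met, at 0.674 CPM in KD tumor 3 and 0.687 CPM in WT tumor 1. Adamtsl5 had 79.5, 81.2, 136, 83.6 and 96.3 CPM in KD tumors, against 81.1, 98.0, 68.3, 97.1 and 90.8 CPM in WT tumors, and did not pass, nor did Adamtsl4, a fibrillin-binding protein, at 27.7 to 41.9 CPM in KD tumors and 24.9 to 40.0 CPM in WT tumors.

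Of the inhibitors, Timp3 alone passed. Timp3, which is held in the matrix and blocks several ADAMTS and ADAM proteases beside the Mmp enzymes, had 17.5, 13.2, 14.5, 15.98 and 17.9 CPM in KD tumors, against 10.1, 6.33, 8.57, 8.20 and 8.37 CPM in WT tumors. All KD tumors lay above all WT tumors, with a log2 fold change of 0.94 (SE 0.13, edgeR adjusted p = 0.00025). Timp1 had 76.1, 98.4, 99.7, 79.2 and 95.3 CPM in KD tumors, against 74.9, 90.9, 91.4, 89.7 and 98.0 CPM in WT tumors. The Timp1 ranges lay over each other, and its log2 fold change was 0.03 (SE 0.11). Timp2, the partner of Mmp14 in opening pro-Mmp2, had 989, 858, 672, 937 and 663 CPM in KD tumors, against 1012, 864, 954, 987 and 1051 CPM in WT tumors. KD tumors 2, 3 and 5 lay below the WT range and KD tumors 1 and 4 inside it, and the log2 fold change of -0.23 did not pass (SE 0.12, edgeR adjusted p = 0.13). Summed over the Mmp genes, the level was 403 ± 111 CPM in KD tumors and 668 ± 57.2 CPM in WT tumors, and over the Timp genes 929 ± 141 CPM in KD tumors and 1071 ± 71.7 CPM in WT tumors (SD, n = 5 each). The ratio of Mmp14 to Timp2 CPM was 0.186 ± 0.054 in KD tumors and 0.348 ± 0.044 in WT tumors, and the highest KD tumor, at 0.269, lay below the lowest WT tumor, at 0.300. Mmp9 over Timp1 was 0.750 ± 0.271 in KD tumors and 1.13 ± 0.070 in WT tumors, with overlapping libraries.

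**Figure D4:**
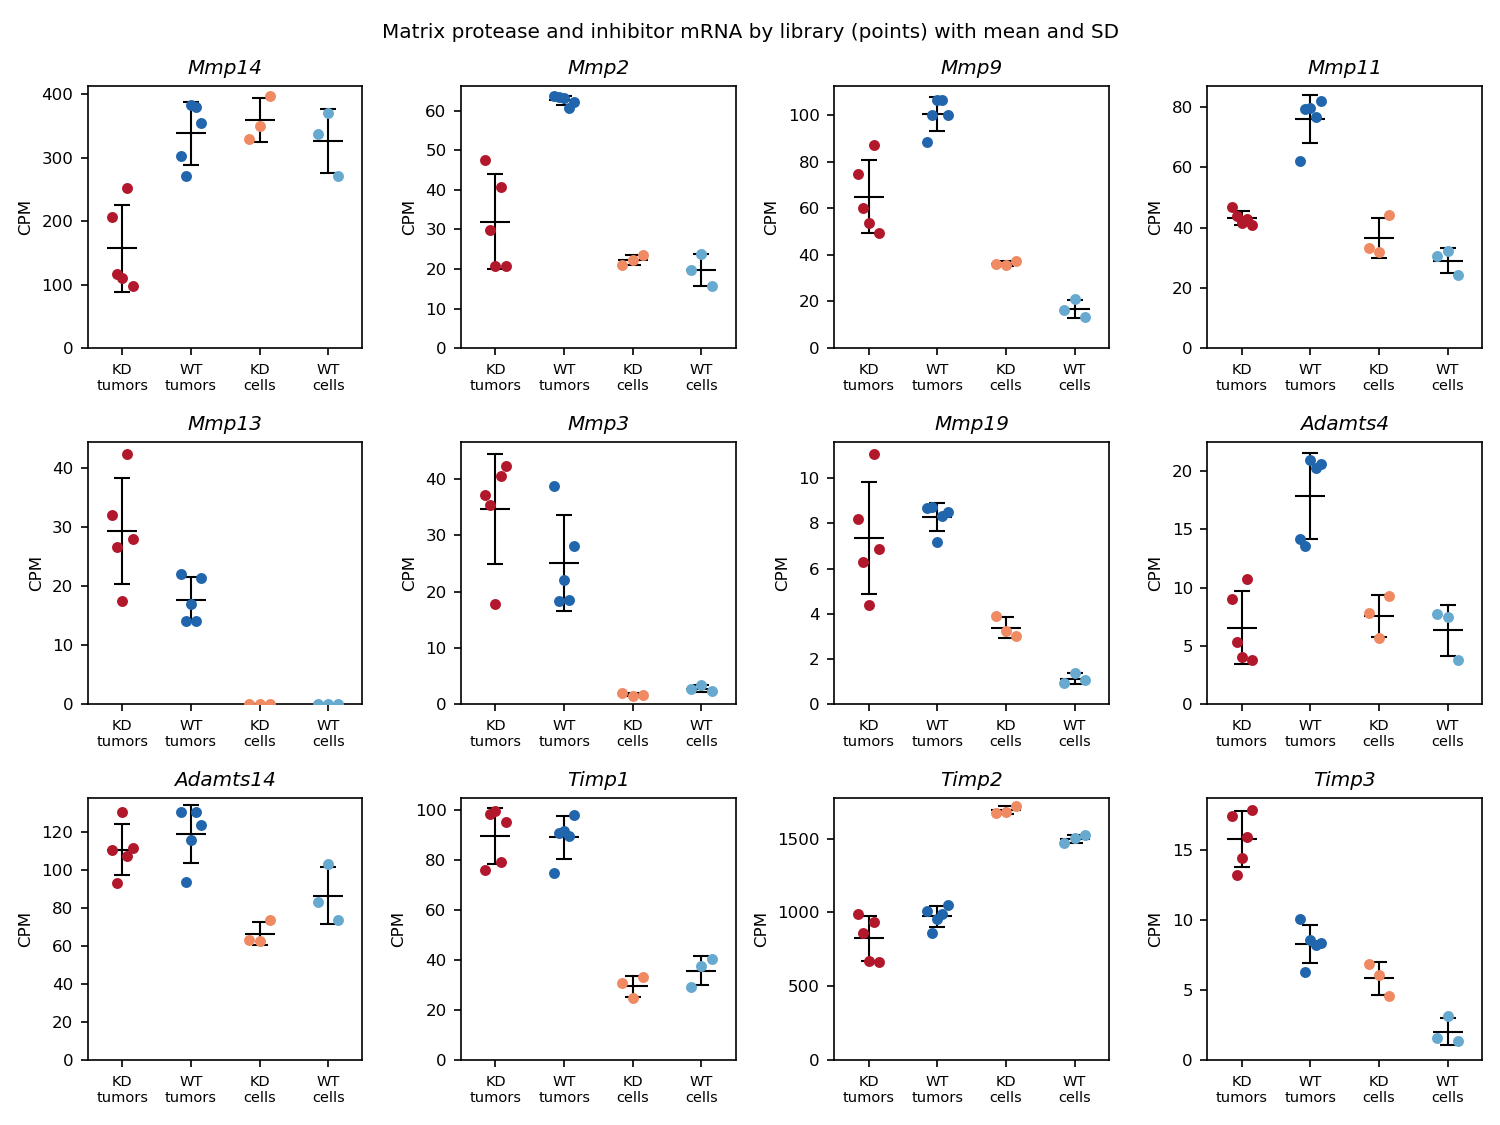
CPM of 12 members by library, with points for single libraries and the mean and SD of each group in black; the y axes start at 0 and differ between panels. KD tumors lie below WT tumors without overlap for Mmp14, Mmp2, Mmp9, Mmp11 and Adamts4 and above them for Timp3, while Mmp9, Mmp19 and Timp3 are higher in KD cells than in WT cells.

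In culture Mmp9, Mmp19, Timp3 and Adamts20 were higher in KD cells than in WT cells. Of 25 members tested in cells, 4 were higher in KD cells and 21 did not pass; no member was called lower by edgeR, although 5 had an unadjusted p under 0.05 in that direction and DESeq2 called 2, Mmp16 and Adamts14. Over the 11905 genes tested in cells, 3.76% were called higher and 5.57% lower, against 16% of the members higher. The members' median log2 fold change was 0.16, beside 0.01 over all genes. Groups did not overlap for 11 of the 25 members, or 44%, against 31.8% of all genes.

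Mmp9 had 35.9, 35.4 and 37.4 CPM in KD cells, against 16.4, 20.9 and 13.2 CPM in WT cells. The lowest KD library lay well above the highest WT library, and the log2 fold change was 1.10 (SE 0.15, edgeR adjusted p = 0.0014). Mmp19, a protease with substrates in basement membrane, had 3.92, 3.22 and 3.03 CPM in KD cells, against 0.910, 1.39 and 1.05 CPM in WT cells (log2 fold change 1.58, SE 0.30, edgeR adjusted p = 0.0081). Its adjusted p was 0.054 without WT library 1 and 0.05005 without KD library 1. Timp3 had 6.84, 6.09 and 4.58 CPM in KD cells, against 1.61, 3.17 and 1.33 CPM in WT cells (log2 fold change 1.4995, SE 0.32, edgeR adjusted p = 0.015). It missed the threshold without WT library 1 (0.086), WT library 3 (0.052) or KD library 1 (0.064), with log2 fold changes of 1.28 to 1.37 in those 3 fits. Adamts20, a proteoglycan-cutting member, had 2.46, 1.21 and 1.48 CPM in KD cells, against 0.700, 0.462 and 0.702 CPM in WT cells. Its log2 fold change of 1.45 was at the threshold (SE 0.41, edgeR adjusted p = 0.049), and 5 of the 6 fits without 1 library missed it: those without WT library 1 (0.15), 2 (0.16) or 3 (0.094) and those without KD library 1 (0.22) or 3 (0.055).

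Apart from Mmp9, the more abundant members did not pass in culture. Mmp14 had 329.9, 349.5 and 398 CPM in KD cells, against 337, 371 and 271 CPM in WT cells (log2 fold change 0.13, SE 0.12). Mmp2 had 20.9, 22.4 and 23.5 CPM in KD cells, against 19.8, 23.9 and 15.8 CPM in WT cells (log2 fold change 0.16, SE 0.15). For both genes the KD and WT libraries overlapped. Timp2 had 1675, 1681 and 1723 CPM in KD cells, against 1469, 1507 and 1523 CPM in WT cells, and although no library overlapped, the log2 fold change of 0.17 did not pass (SE 0.08, edgeR adjusted p = 0.23). Timp1 had 30.7, 24.9 and 33 CPM in KD cells, against 29.3, 37.5 and 40.2 CPM in WT cells (log2 fold change -0.28, SE 0.14). Mmp16 had 25.4, 23.4 and 16.4 CPM in KD cells, against 31.9, 29.1 and 31.5 CPM in WT cells, and missed the threshold (log2 fold change -0.51, SE 0.15, edgeR adjusted p = 0.060); it passed without KD library 2 (edgeR adjusted p = 0.039) and with DESeq2 (adjusted p = 0.025). Adamts14 had 63.5, 62.6 and 73.7 CPM in KD cells, against 83.1, 103 and 73.8 CPM in WT cells (log2 fold change -0.39, SE 0.12, edgeR adjusted p = 0.071); it passed without WT library 3 (0.0499), without KD library 3 (0.024) or with DESeq2 (0.038). Adamts1 had 71.0, 77.4 and 68.7 CPM in KD cells, against 78.6, 89.6 and 66.7 CPM in WT cells, with overlap. Adamtsl5 had 49.5, 42.9 and 52.4 CPM in KD cells, against 52.1, 55.6 and 50.4 CPM in WT cells, and Mmp11 had 33.2, 32.0 and 44.3 CPM in KD cells, against 30.5, 32.2 and 24.4 CPM in WT cells, both with overlap. Adamts12 was too low to test in cells, with 8 reads over the KD cells and 32 over the WT cells. Of the chromosome 9 cluster, 2 members were tested in cells, with opposite signs, and neither passed. Mmp3 had a log2 fold change of -0.75 (SE 0.29, edgeR adjusted p = 0.13). Mmp10 had one of 0.72 (SE 0.25, edgeR adjusted p = 0.098). For both genes the KD and WT cell libraries did not overlap.

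Whether the knockdown acted differently in tumors than in cells was tested as the difference of the 2 log2 fold changes in 1 fit over the 16 libraries. Of 26 members tested, 7 had a lower log2 fold change in tumors than in cells, and 19 did not pass. The difference is signed, so lower does not mean smaller in size. Over all 12581 genes in that fit, 12.7% were called higher and 9.95% lower, against 26.9% of the members lower. No member was called higher by edgeR, 2 had an unadjusted p under 0.05 in that direction, and DESeq2 called 1, Mmp3. Mmp3 had a difference of 1.24 (SE 0.47, edgeR adjusted p = 0.065), which passed without WT tumor 1 (1.45, edgeR adjusted p = 0.019) or without KD tumor 3 (1.41, edgeR adjusted p = 0.014). The members' median difference was -0.30, beside -0.01 over all genes. Of the 7 members, 6 were Mmp genes and the other was Adamts4.

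The difference was -1.69 for Mmp9 (SE 0.21, edgeR adjusted p = 8.4e-05), which was higher in KD cells and lower in KD tumors than in their WT counterparts. It was -2.44 for Mmp17 (SE 0.48, edgeR adjusted p = 0.0022). That value rests on few reads: 67 over the KD tumors, 161 over the WT tumors, 44 over the KD cells and 19 over the WT cells. Mmp17 had 1.06, 1.01 and 0.838 CPM in KD cells, against 0.560, 0.462 and 0.281 CPM in WT cells, which did not pass on its own (log2 fold change 1.13, SE 0.44, edgeR adjusted p = 0.13). For Mmp19 the difference was -1.73 (SE 0.35, edgeR adjusted p = 0.0028). Mmp19 had 8.19, 6.29, 4.41, 11.1 and 6.87 CPM in KD tumors, against 8.70, 8.72, 7.19, 8.35 and 8.51 CPM in WT tumors, so the KD tumors spread around the WT tumors, and the rise seen in culture was not seen there. The difference was -1.11 for Mmp2 (SE 0.29, edgeR adjusted p = 0.013), -1.21 for Mmp14 (SE 0.32, edgeR adjusted p = 0.013), -1.10 for Mmp11 (SE 0.17, edgeR adjusted p = 0.00030) and -1.68 for Adamts4 (SE 0.43, edgeR adjusted p = 0.011). Each of these 4 genes was lower in KD tumors with no call in cells. Adamts4 had 7.84, 5.69 and 9.28 CPM in KD cells, against 7.70, 7.46 and 3.79 CPM in WT cells. Timp3 was higher in KD than in WT in both settings, and the difference of -0.54 did not pass (SE 0.31, edgeR adjusted p = 0.21), except without WT cell library 2, where it was -1.004 (edgeR adjusted p = 0.026).

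**Figure D5:**
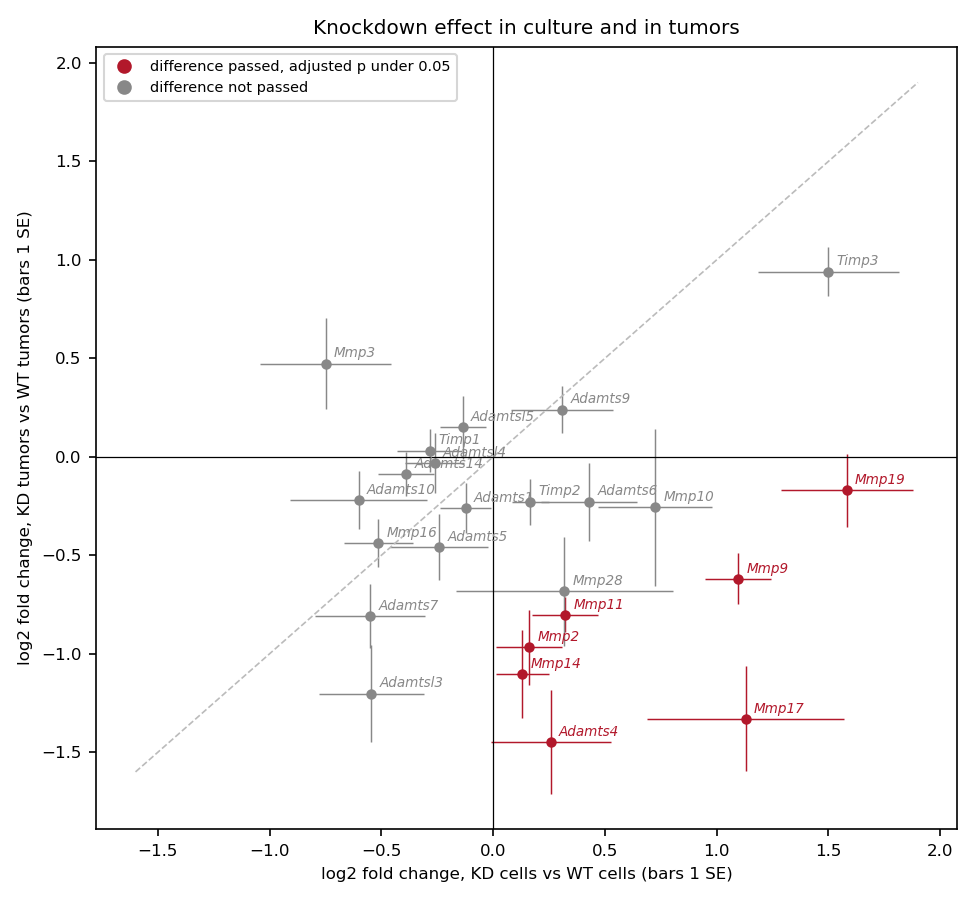
Log2 fold change of KD over WT in tumors (y axis) against cells (x axis) for each member tested in both, with bars of 1 SE and a dashed line of equal effect. Red points are the 7 members whose 2 effects differed at an adjusted p under 0.05; all 7 lie below the dashed line.

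WT tumors had more RNA of most members than WT cells. Tumors also hold the mouse's own cells, and any difference in preparation between tumors and cultures cannot be told apart from the setting. Of 26 members tested, 20 were higher in WT tumors, 5 were lower and Mmp14 did not pass. Over all 12410 genes tested here, 40.7% were higher and 38.4% lower, against 76.9% and 19.2% of the members. The members' median log2 fold change was 1.44, beside 0.04 over all genes. Mmp14 had a log2 fold change of 0.16 (SE 0.12, edgeR adjusted p = 0.22), and without WT tumor 2 it was called higher, at 0.23 with an edgeR adjusted p of 0.049. Mmp9 averaged 100.4 ± 7.4 CPM in WT tumors and 16.8 ± 3.9 CPM in WT cells. Folds here are from the edgeR fit, whose scaling differs from CPM, so they are not ratios of the CPM means. In that fit Mmp9 was 6.43-fold higher in WT tumors (edgeR adjusted p = 2.9e-11). Adamts12 was 10.3-fold higher in WT tumors (log2 fold change 3.37, SE 0.26, edgeR adjusted p = 7.2e-09), and Mmp3 was 9.79-fold higher, at 25.1 ± 8.6 CPM in WT tumors and 2.76 ± 0.61 CPM in WT cells. The members lower in WT tumors were Mmp16 (log2 fold change -1.13, SE 0.12), Timp2 (-0.51, SE 0.08), Adamts1 (-0.60, SE 0.10), Mmp10 (-0.79, SE 0.35) and Adamtsl3 (-0.63, SE 0.27). Adamts5 was called higher, at 0.42 (SE 0.17, edgeR adjusted p = 0.036), and missed the threshold without WT tumor 3, 4 or 5 or WT cell library 2 or 3, with adjusted p-values of 0.056 to 0.18. Mmp10 missed it without WT tumor 1, 3 or 4 or any 1 WT cell library (0.064 to 0.10), and Adamtsl3 without WT tumor 3, 4 or 5 or WT cell library 1 or 2 (0.055 to 0.29). No fold is given for the 11 members listed at 0 in cells, of which Mmp13 at 14.04 to 22.0 CPM and Mmp12 at 3.57 to 15.5 CPM were prominent in WT tumors.

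Genes around these proteases are given from lists, described by their counts in tumors beside the shares of all genes above. Of 10 tested genes that activate or clear Mmp proteins, 6 were lower in KD tumors and 1 was higher. Furin, the convertase that opens Mmp14, Mmp11 and the ADAMTS precursors, averaged 99.8 ± 28.6 CPM in KD tumors and 179 ± 20.3 CPM in WT tumors (log2 fold change -0.84, SE 0.16, edgeR adjusted p = 0.0015). Mrc2, a receptor that takes up cut collagen, averaged 153 ± 12.1 CPM in KD tumors and 252 ± 19.7 CPM in WT tumors (log2 fold change -0.71, SE 0.08). Cd44, a hyaluronan receptor that docks Mmp9 and Mmp14 at the cell surface, was the higher one, at 420.3 ± 42.9 CPM in KD tumors and 247 ± 6.1 CPM in WT tumors (log2 fold change 0.78, SE 0.08).

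Substrates of the proteases were lower in KD tumors in 9 of 13 tested cases, and the other 4 did not pass. Fn1, fibronectin, averaged 1508 ± 260.1 CPM in KD tumors and 4350 ± 814 CPM in WT tumors (log2 fold change -1.52, SE 0.16, edgeR adjusted p = 5.7e-05). Col1a1, a chain of type I collagen, averaged 224 ± 25.4 CPM in KD tumors and 414 ± 63.0 CPM in WT tumors (log2 fold change -0.88, SE 0.11). Bgn, the small proteoglycan biglycan, averaged 109.9 ± 13.6 CPM in KD tumors and 238 ± 49.95 CPM in WT tumors (log2 fold change -1.10, SE 0.14).

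Of 14 AP-1, ETS and RUNX factor genes tested, which bind promoters of many Mmp genes, 3 were higher and 1 was lower in KD tumors, and 2 were higher and 1 was lower in KD cells. Fosl1, a Fos-type partner of AP-1, was higher in both settings: 253 ± 53.3 CPM in KD tumors and 129.9 ± 27.4 CPM in WT tumors (log2 fold change 0.98, SE 0.17, edgeR adjusted p = 0.0012), and 341 ± 7.0 CPM in KD cells and 216 ± 22.1 CPM in WT cells (log2 fold change 0.65, SE 0.10, edgeR adjusted p = 0.0026). Fos had a log2 fold change of 0.68 in tumors (SE 0.17) and Fosb of 1.01 (SE 0.28), both called. Among 10 tested cytokines known to change Mmp transcription, 3 were higher and 3 were lower in KD tumors. Tgfb3, a transforming growth factor, averaged 104 ± 19.0 CPM in KD tumors and 479 ± 75.7 CPM in WT tumors (log2 fold change -2.196, SE 0.14, edgeR adjusted p = 5.9e-06). Ifng, the interferon of T and NK cells, averaged 5.18 ± 1.03 CPM in KD tumors and 1.52 ± 0.29 CPM in WT tumors (log2 fold change 1.79, SE 0.20), and Tnf was higher by 0.97 on the log2 scale (SE 0.15).

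Other protease systems were mixed. Of 8 plasminogen-system genes tested in tumors, 3 were higher and 1 was lower; S100a10, a plasminogen receptor subunit, had a log2 fold change of 1.02 (SE 0.13) and Plgrkt, another plasminogen receptor, of 0.57 (SE 0.12), while Plat, tissue plasminogen activator, had one of -0.78 (SE 0.18). Among 12 cathepsins, lysosomal proteases, 4 were higher and 2 were lower, led by Ctsc (0.71, SE 0.11) and Ctss (0.64, SE 0.11). Of 9 ADAM genes tested, Adam10 (0.58, SE 0.11) and Adam22 (0.89, SE 0.28) were higher and 7 did not pass. Of 6 inhibitors outside the Timp family, Reck, a membrane inhibitor of Mmp14, Mmp2 and Mmp9, was lower (log2 fold change -0.54, SE 0.12), Serping1 was higher (0.61, SE 0.15), and 4 did not pass. Of 6 ADAMTS-like and fucosylation genes, 3 were lower: Adamtsl3 and Adamtsl2, which are members, and Pofut2, the enzyme that puts fucose on thrombospondin repeats (-0.36, SE 0.11).

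Summed levels of cell type markers in tumors follow, and neither the sums nor their part in the results above were tested. Some lists also had counts in cultured MC38 cells, so their tumor sums need not come from the mouse's own cells alone. The 10 T and NK cell markers, of which 9 were higher in KD tumors, summed to 167 to 208 CPM in KD tumors and 62.7 to 115 CPM in WT tumors. The 5 general leukocyte markers summed to 634 to 902 CPM in KD tumors and 459 to 884 CPM in WT tumors. Of them, 3 were higher and 0 lower, with a median log2 fold change of 1.05. The 10 macrophage markers summed to 2371 to 3954 CPM in KD tumors and 2208 to 3727 CPM in WT tumors. Of these, 3 were higher and 0 lower, with a median log2 fold change of 0.165. Over all genes tested in tumors, 20.1% were called higher and 18.3% lower, which is the share to set beside these marker counts. The 12 fibroblast markers, 3 higher and 3 lower, summed to 1321 to 1526 CPM in KD tumors and 1403 to 1942 CPM in WT tumors. The 9 mural cell markers, 4 lower and 1 higher, summed to 165 to 196 CPM in KD tumors and 187 to 226 CPM in WT tumors. The 10 endothelial markers, of which 4 were lower, summed to 208 to 281 CPM in KD tumors and 258 to 321 CPM in WT tumors. Skeletal muscle markers summed to 88.3 to 306 CPM in KD tumors and 63.1 to 103 CPM in WT tumors. All 6 were tested, and 4 were higher and 0 lower, with a median log2 fold change of 1.22. Keratinocyte markers summed to 25.4 to 47.5 CPM in KD tumors and 30.4 to 88.6 CPM in WT tumors. The medians of these sums were 31.6 CPM in KD tumors and 69.8 CPM in WT tumors. Among 4 keratinocyte markers tested, 1 was lower and 3 did not pass. Mast cell markers summed to 12.98 to 89.3 CPM in KD tumors and 54.1 to 94.7 CPM in WT tumors, with the lowest sum in KD tumor 3. The 6 mast cell markers tested did not pass. Dendritic cell markers summed to 35.3 to 40.1 CPM in KD tumors and 23.5 to 35.8 CPM in WT tumors. Of the 5 dendritic cell markers tested, 2 were higher and 1 was lower, with a median log2 fold change of 0.018. Neutrophil markers summed to 26.3 to 41.9 CPM in KD tumors and 19.3 to 31.5 CPM in WT tumors. This list holds 8 genes, of which 6 were in the count table, and 1 of them is the member Mmp8. Of the 5 neutrophil markers tested, Mmp8 included, 1 was higher and 1 was lower, with a median log2 fold change of -0.28. Adipocyte markers summed to 11.1 to 20.5 CPM in KD tumors and 15.4 to 27.2 CPM in WT tumors. Colon epithelium markers summed to 8.27 to 13.7 CPM in KD tumors and 9.07 to 11.4 CPM in WT tumors. Among 2 adipocyte markers tested, 1 was lower, and the 2 colon epithelium markers tested did not pass.

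In cells, 6 of the 12 fibroblast markers had counts and summed to 773 to 834 CPM in KD cells and 1042 to 1219 CPM in WT cells, while Fap, Thy1 and Lum were listed at 0. The 3 of 9 mural cell markers with counts summed to 174 to 184 CPM in KD cells and 145 to 186 CPM in WT cells. The 5 of 10 endothelial markers with counts summed to 5.22 to 8.44 CPM in KD cells and 4.55 to 4.88 CPM in WT cells, with Kdr and Tie1 listed at 0. The 4 of 10 macrophage markers with counts summed to 30.6 to 34.4 CPM in KD cells and 31.2 to 35.5 CPM in WT cells, with Adgre1 and Csf1r listed at 0. The 2 of 7 dendritic cell markers with counts summed to 28.6 to 31.4 CPM in KD cells and 29.4 to 32.8 CPM in WT cells. The T and NK cell, general leukocyte, neutrophil and mast cell markers were listed at 0 in cells. The part of these levels in the changes of Mmp9, Mmp19, Timp3 and Adamts20 in culture was not tested.

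Some members share exon bases with a gene on the opposite strand, and the sources used here do not say whether reads were counted by strand. Timp3 shares 21.3% of its exon bases with Syn3, which had 0.125 to 0.944 CPM in KD tumors and 0.0509 to 0.277 CPM in WT tumors. Mmp19 shares 22.3% with Tmem198b, which had 11.1 to 16.5 CPM in KD cells and 19.9 to 22.8 CPM in WT cells, lower where Mmp19 was higher. Mmp28, Mmp24 and Adamts8 share 12.03%, 13.6% and 10.6% with such genes, and reads from these shared bases cannot be told apart without strand. Mmp14, Mmp2, Mmp9, Mmp13, Timp1 and Timp2 share no exon base with another gene of that annotation.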

How the data were processed

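Gene-level read counts were analysed as deposited, 1 column for each of 16 libraries; counts of whole reads per gene are not normalized in that table. Per the labels' protocols, RNA was extracted with Trizol, captured on mRNA beads and made into Illumina libraries. Per the submitters' processing notes, the tools included STAR 2.7.1a, HTSeq 0.13.5 and cutadapt 1.18, with no role given for each, and the build is hg38, although the gene symbols are mouse symbols. The build behind the counts is therefore unsure, and coordinates and lengths were taken by symbol from GENCODE M21 (GRCm38), which matched 14957 of 15596 symbols (95.9%) and all 39 members. Promoter sequences are from RefSeq (GRCm38.p6), coding sequences from GENCODE M21.

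CPM are counts scaled to a library total of 1000000. Each comparison was fitted with edgeR 4.0.16 (R 4.3.3) by quasi-likelihood on the libraries it compares, after filterByExpr, with TMM scaling and robust dispersion, and p-values were adjusted over all genes tested. The effect of knockdown was fitted on the tumors and on the cells separately, and the difference of the effects on the 16 libraries together. SE is the absolute log2 fold change divided by the square root of F. The procedure was tested on simulated data. Alternatives were median-of-ratios size factors, library totals, DESeq2 1.42.0, no filter, a stricter filter (CPM of at least 1), the replicate number as a block and leaving out each library.

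The members and the lists were chosen with earlier results of these data known. Library values are given for members called in cells or tumors, for the Timp genes and for the 5 highest members per kb; of each list, up to 3 genes with the smallest p in tumors are named. No pair of libraries of a group agreed within counting noise (lowest chi-square per degree of freedom 6.10). Nothing in the labels says that replicates came from separate cultures or animals, so a p-value covers the spread between libraries, which may be technical. A guide count table of 2 pooled-screen samples was not used here.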

Additional observations from a re-analysis of the deposited data

Results flagged for a closer look

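Of 74 group-by-gene sets of 5 tumor libraries tested, 4 had a library far from the others by Dixon's criterion; chance flags about 1 in 20 such sets. KD tumor 3 had 41.9 CPM of Adamtsl4, above 27.7 to 29.4 CPM in the other KD tumors. The same tumor had 17.8 CPM of Mmp3, below 35.5 to 42.2 CPM in the other KD tumors. WT tumor 1 had 62.0 CPM of Mmp11, below 76.8 to 82.1 CPM in the other WT tumors. WT tumor 3 had 7.19 CPM of Mmp19, below 8.35 to 8.72 CPM in the other WT tumors.

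The knockdown effect differed between tumors and cells for 7 members, by the test of that difference. On the log2 scale, tumors minus cells, it was -2.44 for Mmp17, -1.73 for Mmp19, -1.69 for Mmp9, -1.68 for Adamts4, -1.21 for Mmp14, -1.11 for Mmp2 and -1.10 for Mmp11.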

How the results depend on the processing

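No called result changed direction under any alternative run. In tumors, the calls of the members other than Adamts5 passed under each alternative that tested them. Mmp9 in cells and the 7 differences between tumors and cells also passed in each. With DESeq2, 2 members were lower in cells (0 with edgeR). By the same tool 1 member, Mmp3, had a higher log2 fold change in tumors than in cells (0 with edgeR). The cause was not tested. Leaving out 1 library gave 1 to 4 members higher and 0 to 1 lower in cells, 2 to 4 higher and 13 to 15 lower in tumors, 0 to 1 higher and 7 to 8 lower for the difference, and 19 to 21 higher and 3 to 5 lower in WT tumors against WT cells. Over all genes the same fits gave 85 to 681 higher and 205 to 850 lower in cells, 2159 to 2959 higher and 1910 to 2874 lower in tumors, 971 to 1819 higher and 696 to 1540 lower for the difference, and 4838 to 5073 higher and 4578 to 4790 lower in WT tumors against WT cells.

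Same-numbered KD and WT libraries did not deviate together in every pair: the correlations of their deviations were 0.035, -0.271 and -0.193 in cells and 0.211, -0.148, -0.313, 0.178 and -0.116 in tumors, so the numbers were not taken as pairs. With the replicate number as a block, 167 genes were higher and 341 lower in cells (448 and 663 without it), 3 members were higher in cells, 2 were higher and 13 lower in tumors, and Mmp3 became 1 member higher for the difference. Adamts20 in cells also missed the threshold with DESeq2 (0.052) and without a filter (0.059), and Adamts5 in tumors with library totals (0.054). Scaling moved the median of all genes by under 0.1 on the log2 scale. At the depth of these libraries, members under about 1 CPM rest on few reads, among them Mmp17, Adamts8 and Adamtsl2 in KD tumors.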

Other observations

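Members of the same kind did not move together in the 2 settings. In KD cells the 2 called Mmp genes, Mmp9 and Mmp19, were higher than in WT cells; in KD tumors 7 Mmp genes were lower and Mmp13 was higher than in WT tumors. Mmp9 is the 1 member called in both settings with opposite signs, at a log2 fold change of -0.62 in tumors and 1.10 in cells, and Timp3 is the 1 member called in both with the same sign, at 0.94 in tumors and 1.4995 in cells. The ratio of Mmp9 to Timp1 CPM was 1.24 ± 0.16 in KD cells and 0.482 ± 0.133 in WT cells (SD, n = 3 each). Mmp14 over Timp2 was 0.212 ± 0.017 in KD cells and 0.218 ± 0.036 in WT cells.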
